A study of Mus musculus with 6 samples.

Results

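G protein-coupled receptors are membrane proteins that pass a signal from outside the cell to heterotrimeric G proteins. The genes described here were the rows of the 6 expression tables whose symbols start with Gpr and a digit, P2ry and a digit, Adora, S1pr, Lpar, Ptger or Hrh1 to Hrh4, or are one of the Adrb genes. The rule found 132 rows with 131 symbols among the 31626 deposited rows, and no member held the placeholder of a failed estimate. Of these, 51 had a mean of at least 1 FPKM (sequenced fragments relative to gene length and library size) over the 6 libraries, and 50 of them are described singly. Another 66 lay above 0 and below that level, and 15 were listed at 0 in all libraries.

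The cells were mouse (C57Bl/6) common myeloid progenitors transformed with the retrovirus MSCV-MN1-IRES-GFP, which carries the leukaemia oncogene MN1. All had started as Dot1l flox/flox. The 3 control libraries came from cells given a control vector and the 3 Dot1l-deleted libraries (Dot1l -/-) from cells given Cre, and both were grown in M3234 with FBS, IL3, IL6 and SCF and sorted on day 7. No library had Cre with intact Dot1l, so an effect of Cre and one of the deletion cannot be told apart. Whether replicates were separate cultures or animals is not in the labels, so the p-values rest on a spread between samples that may be technical.

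Receptors of this kind are sorted by ligand and by the G protein they use. Gs raises cyclic AMP, Gi lowers it, Gq activates phospholipase C and G12/13 acts on the cytoskeleton. In the myeloid lineage they guide migration, adhesion and the response to inflammatory mediators such as prostaglandins, nucleotides, lysophospholipids and complement fragments, and many are switched on or off as progenitors mature. DOT1L methylates lysine 79 of histone H3 on transcribed genes.

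Dot1l itself was at 20.2, 22.6 and 19.6 FPKM in the controls and at 8.24, 8.17 and 5.80 FPKM in the libraries labelled as deleted. The third Dot1l-deleted library stood apart: the median deviation of its tested genes from their mean over the 6 libraries was -0.37 on the log2 scale, and that of the other libraries 0.05 to 0.10. Among the 51 members it was the lowest of the Dot1l-deleted libraries for 48. The steps between the lowest FPKM values, which are worth single reads, put the libraries at 0.739 to 1.0 of the depth of the first control, with 291 to 355 of 1487 to 1686 low genes at the ratio used. Values after median-of-ratios scaling, which removes such a shift of a whole library, are called scaled below. The progenitor genes Cd34 and Kit fell and Mpo and Prtn3 rose, and 4 of 4 tested neutrophil markers rose. The sum of the 6 neutrophil markers found, untested ones included, was 31.2 to 34.9 FPKM in controls and 248 to 392 FPKM after deletion. Of the megakaryocyte markers Itga2b and Gp1ba fell and Pf4 rose, and of those of mast cells Ms4a2 fell and Tpsb2 rose. Ms4a1, Cd3g and Ncr1 were listed at 0 in every library. In bulk RNA, fewer cells of a type and less RNA per cell cannot be told apart, and the part of these shifts in the receptor results was not tested.

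Of the 51 members tested, 7 rose and 18 fell after Dot1l deletion, and 26 did not pass (limma on log2(FPKM + 1), Benjamini-Hochberg adjusted p under 0.05 over 11924 genes). The shares were 13.7% and 35.3% of the members, beside 7.43% of all tested genes called higher and 12.2% called lower, 19.7% in either direction. In all 25 called members every library of one group lay above every library of the other. Calls and separation rest on the same values, so the separation adds no support. Among the 51, groups did not overlap for 12 members that were higher and 22 that were lower after deletion, beside 10.7% and 34.1% of all tested genes and 44.9% in either direction. The median log2 fold change (Dot1l-deleted minus control) was -0.09 over the 51 members and -0.16 over all tested genes. With scaling those medians were 0.05 and 0.00110, and 20 members were called higher and 20 lower, beside 23% and 22.3% of all tested genes, together 45.3%. Without the third Dot1l-deleted library 19 were called higher and 21 lower, beside 17.4% and 21% of all genes, together 38.4%. The 25 calls kept their direction and passed in both settings, in which more of all tested genes were called. Fewer of the 25 passed without a control: 18 without control replicate 1, 18 without replicate 2 and 20 without replicate 3. Without Dot1l-deleted replicate 1 or 2, 24 passed. In all, 8 of the 25 lost the call without at least 1 library. Of the called members, 6 rose and 13 fell by at least 2-fold in mean FPKM, beside 5.33% and 4.69% of all tested genes.

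**Figure D1:**
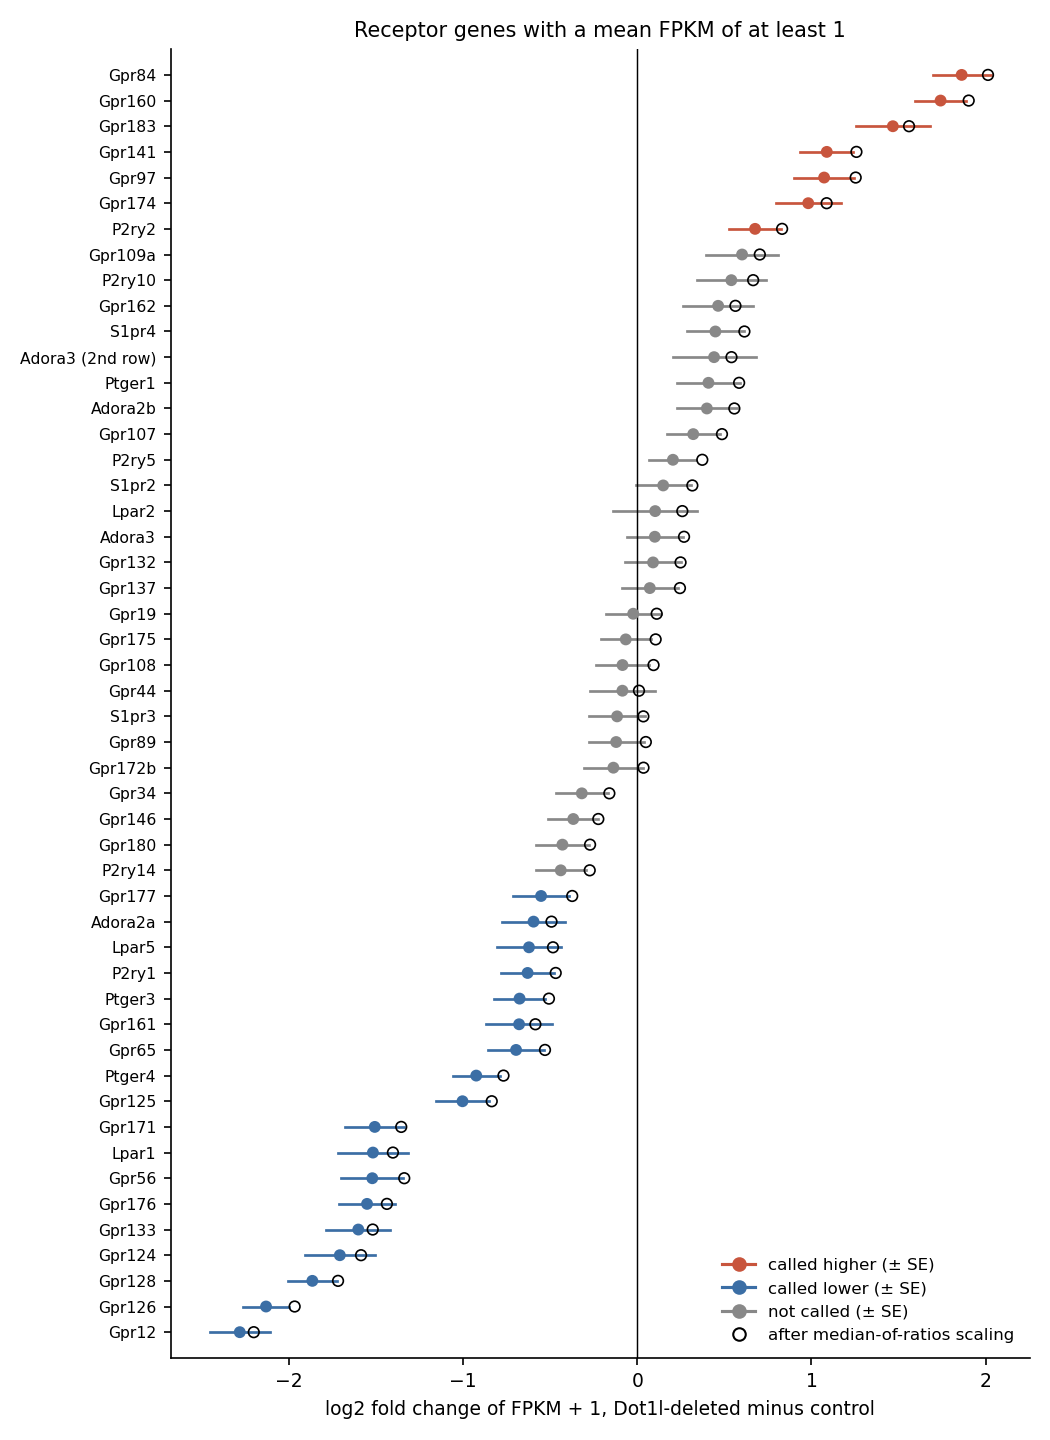
Log2 fold changes of FPKM + 1, Dot1l-deleted minus control, for 50 of the 51 receptor rows with a mean FPKM of at least 1; filled points with bars give the value ± SE (n = 3 each), coloured by call, and open circles the value after median-of-ratios scaling. The values run from -2.28 for Gpr12 to 1.86 for Gpr84, and the open circles of all rows shown lie to the right of the filled points.

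The adhesion receptors, which have long extracellular domains that bind matrix and neighbouring cells and cut themselves at a conserved site, mostly fell. Of 17 rows 7 were tested: Gpr56, Gpr126, Gpr125, Gpr128, Gpr124 and Gpr133 fell and Gpr97 rose, with the same calls after scaling. As deposited 12.2% of all tested genes were called lower and 7.43% higher, and with scaling 22.3% and 23%. Gpr56 (ENSMUSG00000031785, now Adgrg1), a receptor of blood stem cells and natural killer cells, was the highest member and held 29.9% of the summed mean FPKM of all members. It was at 299, 313 and 283 FPKM in the controls and 117, 109.6 and 85.2 FPKM after deletion. The groups did not overlap, and the mean was 2.87-fold lower (log2 fold change -1.52, SE 0.177, adjusted p = 0.000151).

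Gpr97 (ENSMUSG00000060470, now Adgrg3), an adhesion receptor of granulocytes, went the other way. The controls held 39.3, 39.9 and 38.9 FPKM and the Dot1l-deleted libraries 95.3, 91.0 and 68.1 FPKM. The controls were tightly grouped and below every Dot1l-deleted library, and the difference on the log2 scale was 1.07 (SE 0.171, adjusted p = 0.00129). Gpr97 and Gpr56 are next to each other in RefSeq gene order on chromosome 8, so that neighbouring adhesion receptor genes moved in opposite directions.

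The other adhesion receptors had lower levels than Gpr56. Gpr126 (now Adgrg6), known for its need in Schwann cell myelination, was at 20.97, 23.8 and 23.6 FPKM in the controls and 4.56, 4.73 and 3.99 FPKM after deletion (log2 fold change -2.13, SE 0.132, adjusted p = 2.12e-06). Gpr128 (now Adgrg7) was at 9.86, 9.78 and 9.73 FPKM in the controls and 2.36, 1.68 and 1.88 FPKM after deletion, 4.97-fold lower in the mean. In both genes the 3 libraries of a group lay close together and far from the other group. Gpr124 (now Adgra2), a co-receptor for Wnt7 ligands in brain vessels, was at 7.55, 7.58 and 6.17 FPKM in the controls and 2.23, 1.46 and 0.893 FPKM after deletion, and its exons overlap those of Brf2 on the opposite strand. Gpr125 (now Adgra3), of the same subfamily, went from 17.5, 17.5 and 16.9 FPKM to 9.38, 8.77 and 6.49 FPKM, 2.11-fold lower. Gpr133 (now Adgrd1), a Gs-coupled receptor, went from 3.15, 3.39 and 2.88 FPKM to 0.522, 0.370 and 0.208 FPKM, 8.56-fold lower. Gpr64 (now Adgrg2), known from the epididymis, had a mean below the level for testing, with 1.29, 1.37 and 1.76 FPKM in controls and 0.0413, 0.01003 and 0.0594 FPKM after deletion.

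**Figure D2:**
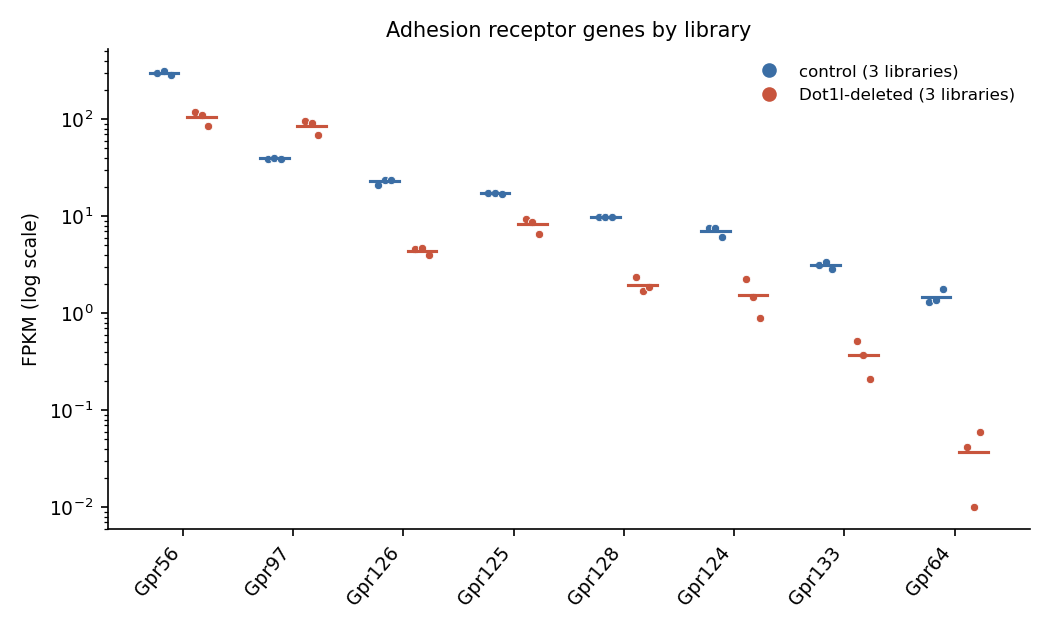
FPKM (log axis) of 8 adhesion receptor genes in each of the 3 control and 3 Dot1l-deleted libraries; points are libraries and bars group means. Only Gpr97 has its Dot1l-deleted libraries above the controls, 68.1 to 95.3 against 38.9 to 39.9 FPKM.

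The bases upstream of the start sites of 7 members are shown. They are the neighbours Gpr56 and Gpr97, which moved in opposite directions, and, among tested members by log2 fold change, the 2 with the largest falls (Gpr12 and Gpr126) and the 3 with the largest rises (Gpr84, Gpr160 and Gpr183). Sequences are the 250 bases before RefSeq start sites (build GRCm38.p6, not the mm9 of the expression values), 5′ to 3′ on the strand of the gene. Capitals mark matches to any of 8 motifs, searched on both strands. They were the C/EBP motif TTGCNNAA, the PU.1 motif GAGGAAGT, the MEIS motif TGACAG, the HOX-PBX motif TGATTNAT, the CRE motif TGACGTCA, the GATA motif AGATAA, the RUNX motif TGTGGT and the TATA box TATAAA.
Gpr56, first start (chr8:94976859-94977108, plus strand): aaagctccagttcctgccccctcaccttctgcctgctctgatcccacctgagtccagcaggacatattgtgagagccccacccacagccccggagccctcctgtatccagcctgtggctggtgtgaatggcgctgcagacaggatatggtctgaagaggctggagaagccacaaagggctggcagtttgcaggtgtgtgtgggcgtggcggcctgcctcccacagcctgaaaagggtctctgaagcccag
Gpr56, second start (chr8:94984149-94984398, plus strand): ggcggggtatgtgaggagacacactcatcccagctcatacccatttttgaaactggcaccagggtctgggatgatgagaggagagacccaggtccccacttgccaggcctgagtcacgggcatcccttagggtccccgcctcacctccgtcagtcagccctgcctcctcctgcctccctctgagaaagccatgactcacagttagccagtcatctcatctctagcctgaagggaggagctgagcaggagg
Gpr97 (chr8:95017442-95017691, plus strand): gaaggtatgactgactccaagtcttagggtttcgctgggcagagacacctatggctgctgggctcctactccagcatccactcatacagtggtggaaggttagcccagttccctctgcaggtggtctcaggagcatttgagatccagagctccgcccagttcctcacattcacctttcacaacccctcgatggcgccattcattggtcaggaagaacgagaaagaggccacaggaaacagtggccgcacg
Gpr126 (chr10:14545037-14545286, minus strand): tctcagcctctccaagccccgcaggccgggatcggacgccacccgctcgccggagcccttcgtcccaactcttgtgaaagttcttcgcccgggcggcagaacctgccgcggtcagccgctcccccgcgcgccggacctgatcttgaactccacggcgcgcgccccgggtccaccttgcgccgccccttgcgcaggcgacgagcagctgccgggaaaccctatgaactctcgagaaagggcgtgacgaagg
Gpr12, downstream start (chr5:146584405-146584654, minus strand): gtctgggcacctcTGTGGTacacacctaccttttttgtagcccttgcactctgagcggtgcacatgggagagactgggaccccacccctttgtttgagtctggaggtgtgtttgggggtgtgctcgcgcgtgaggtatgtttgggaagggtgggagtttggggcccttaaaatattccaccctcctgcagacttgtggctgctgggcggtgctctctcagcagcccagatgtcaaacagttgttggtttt
Gpr12, upstream start (chr5:146585240-146585489, minus strand): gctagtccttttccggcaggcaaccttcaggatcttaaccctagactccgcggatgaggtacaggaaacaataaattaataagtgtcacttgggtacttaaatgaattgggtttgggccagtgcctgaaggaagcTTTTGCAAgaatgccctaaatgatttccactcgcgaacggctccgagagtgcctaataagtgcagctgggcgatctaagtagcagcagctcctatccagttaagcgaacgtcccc
Gpr84 (chr15:103310439-103310688, minus strand): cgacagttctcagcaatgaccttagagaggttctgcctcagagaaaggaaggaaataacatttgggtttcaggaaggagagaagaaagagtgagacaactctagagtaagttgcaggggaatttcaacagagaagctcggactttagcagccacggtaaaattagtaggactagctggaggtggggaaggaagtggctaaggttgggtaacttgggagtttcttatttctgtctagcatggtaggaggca
Gpr160 (chr3:30855700-30855949, plus strand): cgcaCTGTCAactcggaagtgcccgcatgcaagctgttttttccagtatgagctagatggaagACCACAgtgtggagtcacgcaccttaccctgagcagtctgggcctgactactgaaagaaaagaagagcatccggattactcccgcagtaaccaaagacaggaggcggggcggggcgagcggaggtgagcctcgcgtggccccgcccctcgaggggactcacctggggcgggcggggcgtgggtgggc
Gpr183 (chr14:121965194-121965443, minus strand): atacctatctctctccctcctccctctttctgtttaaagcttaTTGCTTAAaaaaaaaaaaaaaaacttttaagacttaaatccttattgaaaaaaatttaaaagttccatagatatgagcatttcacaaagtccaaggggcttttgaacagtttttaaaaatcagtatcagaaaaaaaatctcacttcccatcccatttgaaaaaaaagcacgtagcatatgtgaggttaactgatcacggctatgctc

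These windows differed widely in CpG dinucleotides, with 32 in that of Gpr126 and 2 and 3 in those of Gpr183 and Gpr84. The windows of Gpr56 held 4 each and that of Gpr97 held 7, and none of the 3 had a match to the 8 motifs. The table held windows for 40 of the 51 members, 60 in all, some genes having several starts. The 8 windows of members that rose had a median of 5 CpG, the 20 of members that fell 6.5 and the 32 of those not called 7.5, beside 6 over all 32851 windows. The C/EBP motif was in 3 of 8, 2 of 20 and 4 of 32 of them, beside 9.56% of all windows. Starts of the same gene count separately here. The C/EBP matches of members that rose were in windows of P2ry2 and Gpr183 only, with P2ry2 counted at separate starts. Lpar5 is counted at separate starts among the RUNX matches of members that fell. The MEIS motif was in 2, 1 and 6, beside 15.9%, and the RUNX motif in 2, 5 and 3, beside 14%. GATA matches were in 1, 2 and 3 windows beside 9.99%, and TATA boxes in 1, 1 and 2 beside 12.4%. PU.1 matches were in 0, 0 and 3 beside 2.44%, CRE matches in 0, 0 and 1 beside 1.55%, and the HOX-PBX motif was in 0 of the 60 beside 2.82%. These matches are descriptions of letters in short windows.

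Among receptors without an established ligand the changes were large in both directions. Of 10 tested, 2 rose, 4 fell and 4 did not pass, beside 7.43% of all tested genes called higher and 12.2% called lower. Gpr12 (ENSMUSG00000041468), a Gs-coupled receptor with high activity in the absence of a ligand that is known from brain and oocytes, had the largest log2 fold change downward of the tested members. It was at 4.35, 4.81 and 4.67 FPKM in the controls and 0.222, 0.154 and 0.0815 FPKM after deletion. The mean was 30.2-fold lower (log2 fold change -2.28, SE 0.171, adjusted p = 7.09e-06). Gpr176, a Gi-family-coupled receptor of the brain clock, was at 3.68, 4.13 and 4.46 FPKM in the controls and 0.811, 0.718 and 0.669 FPKM after deletion (log2 fold change -1.55, SE 0.163, adjusted p = 7.35e-05). In both, every control lay far above every Dot1l-deleted library. Gpr171, found in T cells and progenitors, went from 11.8, 11.3 and 10.3 FPKM to 3.08, 4.36 and 2.54 FPKM, 3.35-fold lower. Gpr161, which restrains Hedgehog signalling at the primary cilium, was just above the level for testing, at 1.75, 1.56 and 1.298 FPKM in controls and 0.594, 0.568 and 0.572 FPKM after deletion. Its call (adjusted p = 0.0301) was lost without the first control (0.0958) or the second (0.0527).

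The orphan receptors Gpr160 and Gpr141 rose. Gpr160 was at 4.75, 4.205 and 4.04 FPKM in the controls and 18.4, 18.5 and 13.97 FPKM after deletion (log2 fold change 1.74, SE 0.149, adjusted p = 1.65e-05). Gpr141 was at 9.33, 8.28 and 9.02 FPKM in the controls and 22.2, 21.9 and 16.4 FPKM after deletion (log2 fold change 1.09, SE 0.151, adjusted p = 0.000519). Neither gene had overlapping groups. Gpr19, Gpr146 and Gpr162 did not pass, with log2 fold changes of -0.02, -0.37 and 0.46. Gpr162 was called higher with scaling and without the third Dot1l-deleted library, and Gpr146 was called lower without that library.

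Receptors for metabolites, protons and chemoattractants divided between rises and a fall. Of 5 tested, Gpr84 and Gpr183 rose, Gpr65 fell, and Gpr109a and Gpr132 did not pass. The shares over all tested genes were 7.43% higher and 12.2% lower. Gpr84, a receptor for medium-chain fatty acids on neutrophils and macrophages, had the largest rise of the tested members on the log2 scale. It was at 2.64, 3.15 and 2.33 FPKM in the controls and 14.8, 12.9 and 10.03 FPKM after deletion (log2 fold change 1.86, SE 0.167, adjusted p = 2.37e-05). Gpr183, the oxysterol receptor that positions B cells and dendritic cells, was at 0.439, 0.692 and 0.314 FPKM in the controls and 3.42, 3.73 and 2.23 FPKM after deletion, 6.50-fold higher (adjusted p = 0.000638). Both genes had every Dot1l-deleted library well above every control.

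Gpr65, a Gs-coupled sensor of acidic pH, was at 14.9, 12.3 and 12.8 FPKM in the controls and 8.34, 9.07 and 6.24 FPKM after deletion. The groups did not overlap (log2 fold change -0.70, SE 0.159, adjusted p = 0.0108), and the call was lost without the first control (adjusted p = 0.0801). Gpr132, a relative of Gpr65, was at 6.37 ± 0.532 FPKM in controls and 6.92 ± 1.37 FPKM after deletion (SD, n = 3 each; adjusted p = 0.726), and was called higher with scaling (adjusted p = 0.0175) but not without the third Dot1l-deleted library (0.0641). Gpr109a, now Hcar2, the niacin and hydroxybutyrate receptor, was at 1.17, 0.643 and 1.16 FPKM in the controls and 1.997, 2.52 and 1.55 FPKM after deletion. Its groups did not overlap, yet its adjusted p was 0.0686, and 0.00979 with scaling.

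Of 4 tested prostaglandin receptor genes 2 fell and 2 did not pass as deposited, beside 12.2% of all tested genes called lower. With scaling 1 was called higher and 2 lower, beside 23% and 22.3% of all tested genes. Prostaglandin E2 acts through 4 receptors: that of Ptger1 raises calcium, that of Ptger3 couples to Gi, and those of Ptger2 and Ptger4 to Gs. Ptger4 was at 8.51, 8.9997 and 8.14 FPKM in the controls and 4.11, 4.47 and 3.54 FPKM after deletion (log2 fold change -0.93, SE 0.136, adjusted p = 0.000747). Ptger3 was at 15.8, 15.3 and 13.9 FPKM in the controls and 10.1, 9.64 and 7.39 FPKM after deletion (log2 fold change -0.68, SE 0.149, adjusted p = 0.00899). Both fell with no overlap, although Ptger3 did not pass without the first control (0.0660) or the second (0.0684).

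Ptger1 was the highest of the 4, at 20.1, 20.7 and 19.1 FPKM in controls and 32.5, 29.0 and 20.4 FPKM after deletion. The third Dot1l-deleted library lay within the control range and the adjusted p was 0.146, against 0.000542 with scaling and 0.00277 without that library, so its call rests on how that library is treated. Ptger1 and Ptger4 each share exon bases with a gene on the opposite strand, which for Ptger4 is Ttc33. Ptger2 had a mean below the level for testing, at 0.236, 0.171 and 0.257 FPKM in controls and 1.62, 1.67 and 0.989 FPKM after deletion, all Dot1l-deleted libraries being higher. Ptger2 and Ptger4, whose products couple to the same G protein, therefore had means in opposite order between the groups. Gpr44, now Ptgdr2, the prostaglandin D2 receptor of eosinophils and basophils, was at 1.19 ± 0.0645 FPKM in controls and 1.07 ± 0.158 FPKM after deletion (SD, n = 3 each; adjusted p = 0.774).

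Lysophospholipid receptors were the ligand class with the most tested members, 10 of 14, of which 1 rose, 2 fell and 7 did not pass. Beside these stand 7.43% of all tested genes called higher and 12.2% called lower. Lpar1, the first lysophosphatidate receptor to be characterised, was at 4.05, 6.47 and 4.49 FPKM in the controls and 1.11, 1.40 and 0.740 FPKM after deletion (log2 fold change -1.52, SE 0.201, adjusted p = 0.000374). Lpar5 was at 4.57, 5.43 and 4.50 FPKM in the controls and 3.63, 2.87 and 2.01 FPKM after deletion (log2 fold change -0.62, SE 0.182, adjusted p = 0.0362). Both fell with no overlap, but Lpar5 lost the call without any 1 control (adjusted p 0.0850 to 0.163), without the second Dot1l-deleted library (0.0838) and with no filter on low genes (0.104). Lpar2 varied widely within groups, at 7.405, 7.81 and 4.92 FPKM in controls and 9.99, 7.65 and 4.71 FPKM after deletion, and it did not pass. P2ry5, now Lpar6, was at 9.93 ± 0.466 and 11.6 ± 1.28 FPKM (SD, n = 3 each; adjusted p = 0.321), and was called higher with scaling (0.00517) and without the third Dot1l-deleted library (0.0158). The exons of P2ry5 overlap those of Rb1 on the opposite strand.

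Of the sphingosine 1-phosphate receptors, which govern exit of blood cells from tissues, 3 were tested and none passed by limma as deposited, with unadjusted p under 0.05 for S1pr4 alone. S1pr4, the receptor most restricted to blood cells, was at 8.87, 9.06 and 7.90 FPKM in the controls and 14.4, 12.9 and 9.50 FPKM after deletion. Those groups did not overlap, and the adjusted p was 0.0826, and 0.000512 with scaling. The controls held 10.1 ± 0.255 FPKM of S1pr2 and 4.99 ± 0.660 FPKM of S1pr3, and the Dot1l-deleted libraries 11.4 ± 2.26 and 4.54 ± 0.815 FPKM (SD, n = 3 each). S1pr2 and S1pr4 were called higher with scaling and without the third Dot1l-deleted library, and S1pr3 in neither. S1pr1 lay just below the level for testing, at 1.02, 0.807 and 1.11 FPKM in controls and 0.843, 0.947 and 0.945 FPKM after deletion, with overlapping groups. It and Gpr15, with means of 0.945 and 0.978 FPKM, were the members nearest below that level, and Gpr161 and Gpr44, with 1.06 and 1.13 FPKM, those nearest above.

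The 3 receptors for lysophosphatidylserine, Gpr174, P2ry10 and Gpr34, did not share a call. Gpr174 was at 0.890, 0.719 and 0.876 FPKM in the controls and 2.53, 3.24 and 2.13 FPKM after deletion (log2 fold change 0.98, SE 0.186, adjusted p = 0.00385). P2ry10 was at 1.87, 1.92 and 1.74 FPKM in the controls and 2.81, 4.47 and 2.38 FPKM after deletion, with no overlap and an adjusted p of 0.0868. Gpr34, a receptor of microglia and other macrophages, was at 5.32, 5.39 and 6.07 FPKM in the controls and 3.51, 4.62 and 4.79 FPKM after deletion, again with no overlap (adjusted p = 0.173). Without the third Dot1l-deleted library the adjusted p was 0.0319 for P2ry10 and 0.0583 for Gpr34.

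Of 7 tested nucleotide and adenosine receptor rows, 1 was called higher, 2 lower and 4 did not pass. Among all tested genes 7.43% were called higher and 12.2% lower. Each call in this class was lost when at least 1 control was left out. P2ry2, the receptor for ATP and UTP that signals through Gq, was at 4.55, 4.42 and 4.10 FPKM in the controls and 8.39, 8.28 and 6.19 FPKM after deletion (log2 fold change 0.68, SE 0.149, adjusted p = 0.00915). P2ry1, the Gq-coupled ADP receptor of platelets, was at 8.98, 9.26 and 11.2 FPKM in the controls and 6.10, 6.97 and 4.94 FPKM after deletion (log2 fold change -0.63, SE 0.155, adjusted p = 0.0157). Neither gene had overlapping groups. P2ry2 lost the call without the second (0.0563) or the third control (0.0623), and P2ry1 without each control in turn (0.0520 to 0.117) and with no filter on low genes (0.0537). P2ry14, the receptor for UDP-sugars known as a stem cell marker, was at 10.9, 11.2 and 11.7 FPKM in the controls and 7.90, 9.51 and 6.87 FPKM after deletion, with no overlap and an adjusted p of 0.0563. It was called lower with scaling (0.0348), without the third Dot1l-deleted library (0.0336) and without the second (0.0480). It is next to Gpr171 in RefSeq gene order on chromosome 3, in a run of receptor genes that includes P2ry13 and P2ry12, whose means were at most 0.180 FPKM in either group.

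Adenosine acts through Gs at the receptors of Adora2a and Adora2b and through Gi at that of Adora3. Adora2a was at 2.06, 2.15 and 1.77 FPKM in the controls and 1.11, 1.05 and 0.787 FPKM after deletion, 2.03-fold lower with no overlap. Its adjusted p was 0.0408, and 0.0702 to 0.118 without 1 control. Adora2b was at 6.62, 5.09 and 4.62 FPKM in the controls and 8.29, 8.19 and 6.00 FPKM after deletion, with overlap between the groups (adjusted p = 0.134; scaled 0.00691). Adora3 (ENSMUSG00000000562) was at 9.98 ± 1.28 FPKM in controls and 10.8 ± 1.93 FPKM after deletion (SD, n = 3 each; adjusted p = 0.692). A second row with that symbol, ENSMUSG00000074344, now named Tmigd3, was at 1.33 ± 0.229 and 2.25 ± 0.965 FPKM (adjusted p = 0.233; scaled 0.0477), and since the exons of both rows overlap on the same strand, their split of reads is uncertain.

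**Figure D3:**
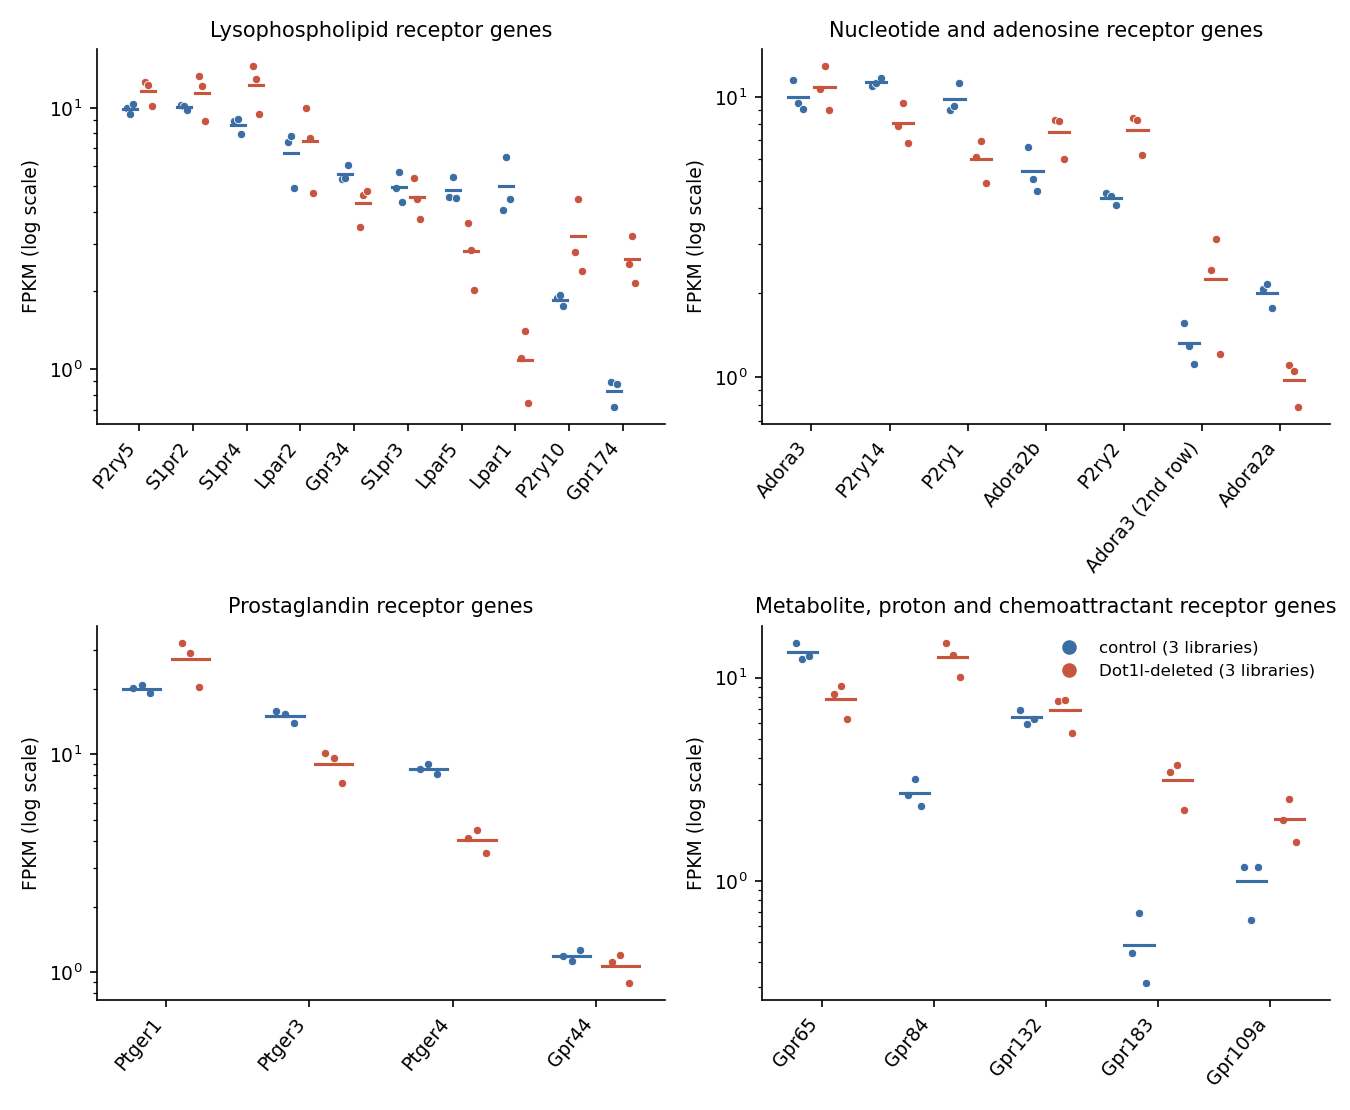
FPKM (log axes) of the tested lysophospholipid, nucleotide and adenosine, prostaglandin, and metabolite, proton and chemoattractant receptor genes in each library; points are libraries and bars group means. Gpr84, Gpr183, Gpr174 and P2ry2 are higher and Lpar1, Lpar5, P2ry1, Adora2a, Ptger3, Ptger4 and Gpr65 lower in all 3 Dot1l-deleted libraries, while the groups of Adora3 and Gpr132 overlap.

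Some members carry a Gpr symbol but are not established G protein-coupled receptors. Of 8 tested, 1 fell and 7 did not pass, beside 12.2% of all tested genes called lower. Gpr177, now Wls, the carrier that brings Wnt proteins to the cell surface, was at 38.9, 39.8 and 41.2 FPKM in the controls and 28.2, 31.1 and 22.2 FPKM after deletion (log2 fold change -0.55, SE 0.161, adjusted p = 0.0360). Its groups did not overlap, and the call was lost without each control in turn (0.127 to 0.163) and without the first Dot1l-deleted library (0.0680). The trafficking genes Gpr107 and Gpr108, the Golgi channel gene Gpr89, the lysosomal gene Gpr137, the riboflavin transporter gene Gpr172b (now Slc52a2) and Gpr175 (now Tpra1) had log2 fold changes of -0.14 to 0.32 and overlapping groups. Gpr180 was at 7.96 ± 0.401 FPKM in controls and 5.70 ± 1.07 FPKM after deletion (SD, n = 3 each; adjusted p = 0.0722; scaled 0.0159). With scaling Gpr107 and Gpr137 were called higher.

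Of the 66 members above 0 and below a mean of 1 FPKM, 18 had means of at least 0.1 FPKM. In 11 of these 18 every Dot1l-deleted library lay above every control and in 3 below, beside 21.1% and 12.6% of all genes in that range, together 33.7%. Of those that had a group mean of at least 0.5 FPKM, 8 are named here with no test as deposited. Higher after deletion, beside Ptger2, were Gpr15, Gpr77, Hrh4 and Gpr157, and lower, beside Gpr64, were Hrh2 and Gpr155. Gpr15, a homing receptor of lymphocytes, was at 0.329, 0.129 and 0.0930 FPKM in the controls and 2.12, 1.73 and 1.47 FPKM after deletion. Gpr77, now C5ar2, the second receptor for complement C5a, was at 0.453, 0.474 and 0.538 FPKM in the controls and 1.10, 1.18 and 0.973 FPKM after deletion. The mean was 9.65-fold higher for Gpr15 and 2.22-fold higher for Gpr77.

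No histamine or adrenaline receptor reached a mean of 1 FPKM. Hrh4, the Gi-coupled histamine receptor of blood cells, was at 0.314, 0.283 and 0.215 FPKM in the controls and 0.646, 0.948 and 0.719 FPKM after deletion. Hrh2, the Gs-coupled one, was at 0.536, 0.497 and 0.539 FPKM in the controls and 0.375, 0.321 and 0.200 FPKM after deletion, the opposite order. Gpr157 was at 0.161 ± 0.0368 FPKM in controls and 0.746 ± 0.112 FPKM after deletion, and Gpr155 at 0.623 ± 0.0916 and 0.263 ± 0.0632 FPKM (SD, n = 3 each). With the filter on low genes removed, 12 of the 66 were called higher and 3 lower. Of all 117 members then tested, at any level, 19 were called higher and 19 lower. Beside these stand 6.52% and 6.68% of the 20568 genes then tested at any level, together 13.2%. The share among low genes alone in that fit is not given here. Of those named here, all but Hrh2 (adjusted p = 0.0603) passed in that fit. They were named for groups that did not overlap in the same libraries, so their passing adds no support.

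**Figure D4:**
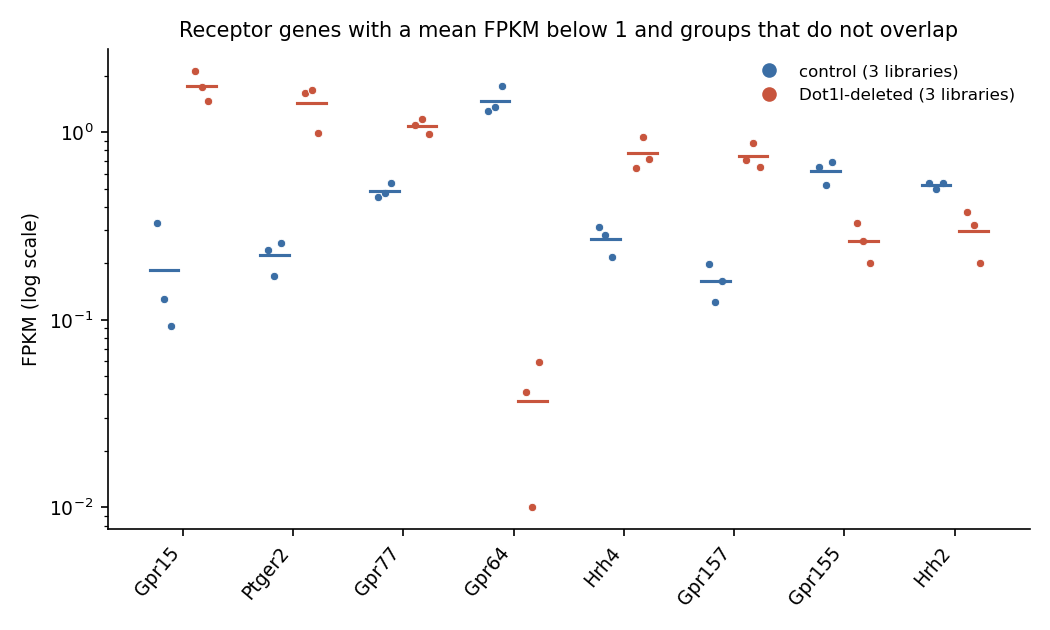
FPKM (log axis) of 8 receptor genes with a mean below 1 FPKM, groups that did not overlap and a group mean of at least 0.5 FPKM, in each library; points are libraries and bars group means. Ptger2 and 4 others are higher and Gpr64, Gpr155 and Hrh2 lower in all 3 Dot1l-deleted libraries.

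Genes that act around the receptors were read from 10 lists with 96 tested genes, of which 13 rose and 22 fell, beside 7.43% and 12.2% of all tested genes. With scaling 29 rose and 27 fell, beside 23% and 22.3% of all tested genes. Without the third Dot1l-deleted library the counts were 24 and 26, beside 17.4% and 21% of all tested genes. Among 10 tested G protein alpha subunit genes, Gnaq rose 1.57-fold and Gna11, its close relative in the Gq class, fell 1.39-fold, and the median log2 fold change was -0.13. The Gs gene Gnas was at 541 ± 17.1 FPKM in controls and 409 ± 73.8 FPKM after deletion, and the Gi gene Gnai2 at 271 ± 12.5 and 295 ± 50.4 FPKM (SD, n = 3 each; adjusted p = 0.146 and 0.702). With scaling Gnas was called lower and Gnai2 higher (adjusted p = 0.00291 and 0.00651). Of 9 beta and gamma subunit genes only Gng11 passed as deposited and rose 2.46-fold, and 4 were called higher with scaling. Of 9 RGS genes, whose products switch G proteins off, Rgs2 rose 3.07-fold and Rgs10, Rgs12 and Rgs13 fell. Rgs2, which acts mainly on Gq, was at 14.1 ± 0.735 FPKM in controls and 43.4 ± 8.40 FPKM after deletion, and Rgs10 was at 43.4 ± 1.12 and 11.0 ± 1.17 FPKM (SD, n = 3 each). Of 5 receptor kinase and arrestin genes, 1 fell, Grk5, at 1.74-fold, and with scaling 2 were called higher.

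Of 12 adenylyl cyclase and protein kinase A genes, Adcy6 fell 2.54-fold and Prkacb 1.46-fold. Among 8 phosphodiesterase genes, whose products break down cyclic nucleotides, Pde2a rose 7.07-fold, Pde3b rose 3.79-fold and Pde4b fell 1.51-fold. Of 14 genes of phospholipase C and other effectors 2 rose and 6 fell, beside 7.43% and 12.2% of all tested genes. Prkcb and Prkca, both protein kinase C isoforms, moved in opposite directions. Prkcb was at 4.59 ± 0.0437 FPKM in controls and 14.8 ± 2.33 FPKM after deletion, Prkca at 18.8 ± 0.191 and 8.27 ± 1.32 FPKM and Prkce at 3.21 ± 0.399 and 1.05 ± 0.0974 FPKM (SD, n = 3 each).

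Enzymes that make or remove the ligands changed beside the receptors. Of 10 tested for nucleotides and adenosine, 4 rose and 2 fell, beside 7.43% and 12.2% of all tested genes. Entpd1 (CD39) and Nt5e (CD73), which turn extracellular ATP into adenosine in sequence, rose from 0.664 ± 0.128 to 5.85 ± 0.391 FPKM and from 5.52 ± 0.608 to 22.3 ± 4.22 FPKM (SD, n = 3 each). Dpp4, a peptidase also in that list, rose 2.90-fold. In the list for sphingosine and lysophosphatidate lipids, 4 of 10 tested genes fell and 1, Lipa, rose 1.52-fold. Lipa was listed there although it is not an established enzyme of these lipids. Spns2, the exporter of sphingosine 1-phosphate, fell from 34.6 ± 1.97 to 13.6 ± 2.54 FPKM (SD, n = 3 each), and Pla2g6 fell 1.74-fold. Of 9 for prostaglandins, histamine and catecholamines, 1 rose and 2 fell. Hnmt, which inactivates histamine, rose from 0.196 ± 0.0214 to 3.33 ± 0.0940 FPKM, while Hdc, which makes it, fell from 279.7 ± 5.11 to 187.5 ± 24.2 FPKM (SD, n = 3 each). Hpgd, which inactivates prostaglandins, was at 108, 117 and 74.6 FPKM in the controls and 8.76, 0.949 and 2.41 FPKM after deletion, a fall of 24.7-fold with libraries of a group far apart. The calls of Gnaq, Gna11, Grk5, Prkacb, Pde4b, Lipa and Hdc were lost without each control in turn (adjusted p 0.0829 to 0.220), and that of Adcy6 without the second control (0.0667). Without the first Dot1l-deleted library the calls of Gnaq (0.107), Gna11 (0.0710), Lipa (0.0832), Prkacb (0.0676), Hdc (0.0807) and Grk5 (0.0552) were also lost. Without the second, those of Gnaq (0.129), Gna11 (0.0934), Lipa (0.106), Prkacb (0.0527) and Pde4b (0.0813) were lost.

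**Figure D5:**
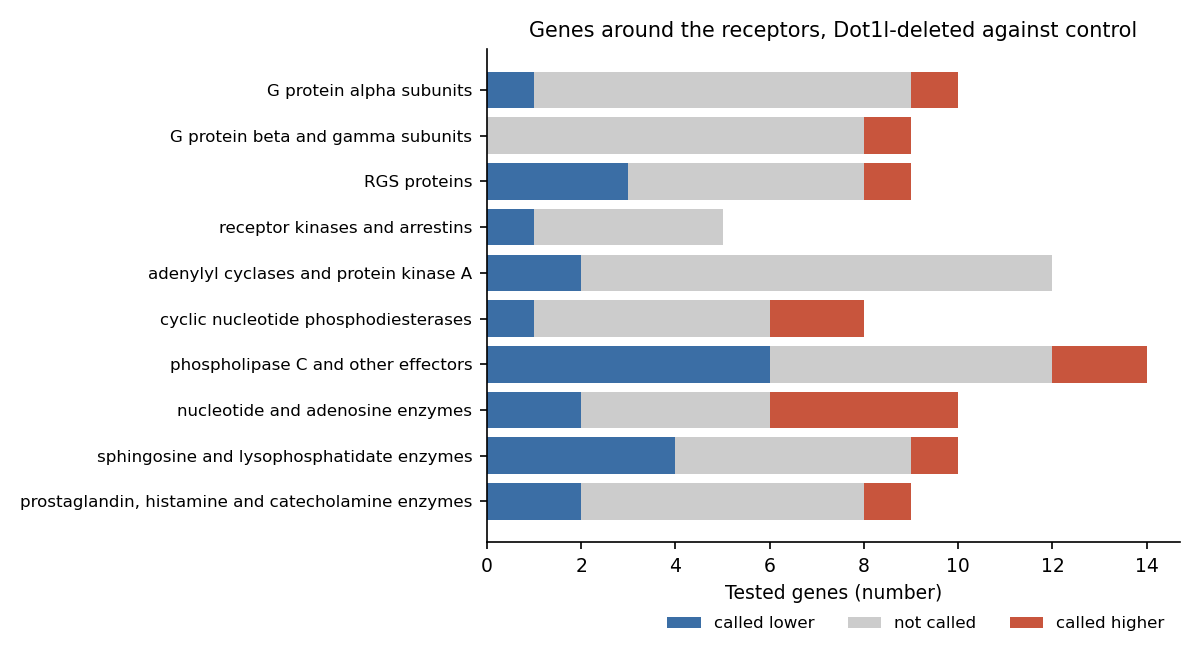
Number of tested genes called lower, not called and called higher after Dot1l deletion in 10 lists of genes that act around the receptors (values as deposited). The lists with the most genes called in each direction are the nucleotide and adenosine enzymes, 4 of 10 higher, and the phospholipase C and other effectors, 6 of 14 lower. Over all tested genes the shares are 7.43% higher and 12.2% lower.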

How the data were processed

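RNA with poly(A) tails from 3 control and 3 Dot1l-deleted samples was sequenced after a stranded library preparation, per the labels' protocols. The authors deposited FPKM values for 31626 Ensembl genes in 1 table per sample. The tools named, with no role, per the submitters' processing notes were GSNAP, Cuffdiff, SAMtools and CASAVA 1.8.2, and the build was mm9; the sources used here do not say whether counting used strand. Rows with a failed estimate in any library (378) were left out.

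The 11924 genes whose mean reached 1 FPKM were tested on log2(FPKM + 1), which understates changes of low genes, using limma 3.58.1 (R 4.3.3, mean-variance trend, two-sided). The script was first tested on simulated data, where it recovered most large changes and few small ones. The simulation had independent noise and no shift of a whole library, and it was set to stop if large changes were missed. It therefore does not measure the power in these libraries. Groups came from the sample titles. SE is the moderated standard error, and a fold not called log2 is a ratio of group means. The values of some members and markers are not reported here. The other members with a mean of at least 1 were named, as were up to 3 called genes per list with the smallest adjusted p; Rgs13, Gnas and Gnai2 were added after their values were seen. Low members were named where groups did not overlap and a group mean reached 0.5 FPKM; S1pr1 was added. Ligand classes were assigned by hand. The members and lists were chosen with earlier results of these data known. Alternatives covered pseudocount (0.1 and 5), filter, scaling, trend, a replicate block and each library left out. Promoter sequences are from RefSeq and exon overlaps from GENCODE M21.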

Additional observations from a re-analysis of the deposited data

How the results depend on the processing

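The count of genes called, 2345 as deposited, was 5401 with median-of-ratios scaling, 1428 to 4573 with 1 library left out (1428 to 1501 without each control, 4573 without Dot1l-deleted replicate 3), and 4568 with scaling and without Dot1l-deleted replicate 3. Members called higher, 7 as deposited, were 20 with scaling, 19 with no filter, 6 to 19 with 1 library left out and 20 with scaling and without that library. Members called lower, 18 as deposited, were 10 with a filter at a mean FPKM of 5, which tests fewer genes, and 11 to 21 with 1 library left out, 11 without control replicate 1. Genes of the signalling lists called, 35 as deposited, were 56 with scaling, 21 with the filter at 5 and 19 to 50 with 1 library left out. The pseudocount and the trend moved none of these 4 counts by over 1.5 times, and for changes not tied to the number of genes or samples the cause was not tested.

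Of members that were not called, the log2 fold change turned from below to above 0 with scaling for Gpr108 (0.093), Gpr172b (0.035), Gpr175 (0.10), Gpr89 (0.049), S1pr3 (0.034), Gpr19 (0.11) and Gpr44 (0.0092). With scaling and without Dot1l-deleted replicate 3 it did so for Gpr108 (0.068), Gpr172b (0.064), Gpr175 (0.081), Gpr89 (0.063), S1pr3 (0.014) and Gpr19 (0.10). With 1 library left out, values crossed 0 for Gpr108 (-0.15 to 0.039), Gpr172b (-0.24 to 0.036), Gpr175 (-0.13 to 0.053), Gpr89 (-0.22 to 0.036), Gpr19 (-0.10 to 0.074), Gpr137 (-0.0089 to 0.23), Lpar2 (-0.11 to 0.36) and Adora3 (-0.020 to 0.22). No called member changed direction in any alternative run.

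Same-numbered control and Dot1l-deleted libraries did not deviate together over the tested genes, with correlations of -0.0301, -0.0377 and 0.0128, so the numbers were not taken as pairs. With a replicate block 2953 genes, 10 members higher, 18 lower and 33 signalling genes were called. FPKM gives no counts, so the precision of members near 0 is limited by an unknown number of reads.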
